A study of Mus musculus with 2 samples.

Results

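The cells described here are the proliferating neural stem cells of the series, the activated culture, split by how brightly they glowed without any dye. Autofluorescence was read by flow cytometry, and single cells were sorted from 4 gates along the punctate signal, the low gate at one end, the high gate at the other and low-mid and mid-high between. All cells that carry the condition Activated in the deposited per-cell table were used, 164 of 640 in the series. The low gate held 34 of them, low-mid 41, mid-high 43 and high 46, where the labels give 47 cells per condition. High against low is the comparison followed throughout, and the middle gates show where along the range a level changed.

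The cells came from C57BL6/J mice, males 6 weeks old, whose hippocampal neural stem cells were expanded in culture. Activated cells grew in serum-free medium with B27, 20 ng/mL each of FGF-2 and EGF and 5 µg/mL of heparin. For the quiescent culture EGF was removed and 50 ng/mL of BMP-4 added, with cells considered quiescent after 3 days, and for the exit cultures quiescent cells went back to activation medium with 0.5 µg/mL of noggin, an antagonist of BMP-4, for 24 h or 48 h. All cultures therefore had FGF-2. Polyadenylated RNA was profiled by SORT-seq, which tags each transcript with a molecular identifier, on plates of 384 wells. Activated and 48 h exit cells shared a plate.

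In a dividing neural stem cell culture most cells are somewhere in the cell cycle, and a cell grows as it moves from G1 through S to G2 and mitosis. Autofluorescence of living cells comes from molecules such as NAD(P)H and flavins and, in grains, from lysosomes loaded with undigested material such as lipofuscin. The gates therefore sort a culture by a property that can go with cell size, metabolism, lysosome content or cell cycle position.

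One culture was sorted once per gate, so cells of a gate are not replicates and no gate difference in this culture has a replicate check or a p-value. Levels are CPM, a gene's counts summed over a gate's cells and scaled to the sum of all genes in that gate. Gate differences are log2 ratios of CPM with 10 added, which understates the change of low genes, and the 95% intervals in brackets cover counting error only. A gene counted as measured with at least 100 counts in the culture and a count in at least 10% of its cells, and a difference was called at 1.5-fold. Totals were 859349 counts in the low gate, 1283110 in low-mid, 1785480 in mid-high and 2634430 in high.

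The cells carried markers of neural stem cells in every gate. Of 14 such markers 13 had a count, summing to 6456 CPM in the low gate and 7121 in the high gate. Of the 9 measured, 5 were higher and 4 lower in the high gate, with log2 ratios from -0.34 to 0.46. Vim, an intermediate filament gene, stood between 2942 and 3097 CPM over the 4 gates, and Nes, the progenitor filament nestin, between 631.2 and 671 CPM. Of 15 microglial markers 10 had no count, and of 13 endothelial and pericyte markers 8 had none, with summed levels of 10.6 to 15.6 CPM and 2.33 to 5.31 CPM over the gates. Gfap, the astrocyte filament, had no count in the low gate and 4 counts in the high gate. Of 18 astrocyte markers 17 had a count, summing to 1495 CPM in the low gate and 1832 in the high gate. Of 15 neuronal markers 11 had a count, with sums of 704.02 and 584 CPM, and Dcx and Neurod1 had none. Of 14 oligodendrocyte lineage markers 9 had a count, with sums of 2052 and 2235 CPM, and Sox10, Mog and Mag had none. The part of the astrocyte and neuronal lists in the differences below was not tested.

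Cells of the high gate were larger and held more RNA. Forward scatter, a measure of cell size in arbitrary units, had a median of 47026 in the low gate, 55676 in low-mid, 67701 in mid-high and 90609 in high. The ranges of the end gates overlapped little, from 28636 to 68156 in low and from 54506 to 135817 in high. Transcripts per cell had medians of 25566, 32025, 41338 and 55395 from low to high. In the low gate cells held 7228 to 42471 transcripts and in the high gate 15764 to 97009. Both measures stepped up at every gate, and the high gate stood at 2.17 times the low gate in transcripts and 1.93 times in forward scatter.

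Per count of the external spike-in RNA in each well, the transcript medians were 77.8 in the low gate and 165 in the high gate, a ratio of 2.12. The same ratio was 1.99 in the quiescent culture, 1.499 at 24 h and 1.46 at 48 h of exit. Autofluorescence itself, which set the gates, had medians of 2477, 3267, 4644 and 7259, and divided by forward scatter the high gate stood at 1.55 times the low gate. The activated and quiescent cultures thus had the wider gaps in RNA content between the end gates, while the high to low ratio of forward scatter was 1.86 in the quiescent, 1.63 in the 24 h and 1.77 in the 48 h culture. With 1 activated culture set against 3 others an exact permutation test of such a value cannot reach 0.05, so none was made.

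Over the 164 cells autofluorescence had a Spearman rank correlation of 0.85 with forward scatter and 0.70 with transcripts. Within the low gate these were 0.38 and 0.09, and within the high gate 0.55 and 0.41. These cells share a plate, a sort and the gates, and the values are given as description. Gates were also sorted one after another and filled neighbouring plate rows, low in rows H to J and high in rows N to P, with median sort time stamps of 71.5 and 362.4. Gate, sort order and plate row cannot be told apart.

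**Figure D1:**
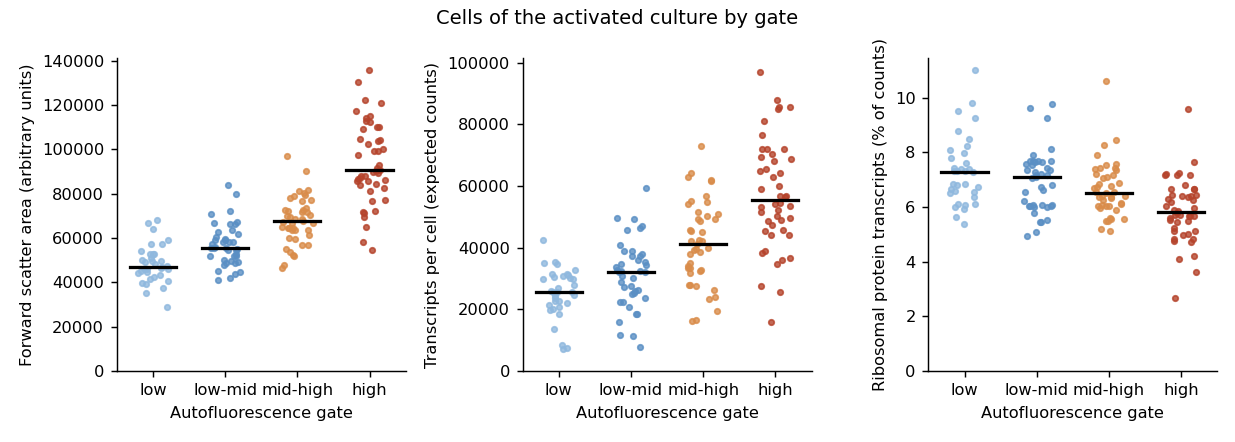
Forward scatter area (arbitrary units), transcripts per cell (expected counts) and the percent of a cell's counts in ribosomal protein genes, for each activated cell by autofluorescence gate. Points are cells and bars are medians: forward scatter and transcripts step up from 47026 to 90609 and from 25566 to 55395, and the ribosomal protein percent steps down from 7.29 to 5.81.

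The deposited phase labels were spread unequally over the gates. In the low gate 24 of 34 cells were labelled G2M (70.6%, exact 95% interval 52.5 to 84.9) and 10 S. No low-gate cell was labelled G1, which allows a share of up to 8.82% by the limit of 3 counts and 10.3% by the exact interval. In low-mid, 22 of 41 cells were labelled S, 13 G2M and 6 G1. In mid-high, 18 of 43 were labelled G2M, 17 S and 8 G1. In the high gate 24 of 46 were labelled G2M (52.2%, 36.9 to 67.1), 12 S, 9 G1 and 1 G0. The G1 label thus appeared from low-mid upward and the share of the G2M label was highest in the dimmest gate. In the 48 h exit culture 8 of 42 low-gate cells were labelled G1. Low-gate cells were the shallowest, and the part of depth in the labels was not tested. Within the activated low gate, cells labelled G2M held more Ccnb1 than cells labelled S, at 342 against 57.7 CPM. Kpna2 went the other way there, at 86.7 against 150 CPM. Top2a stood at 255 CPM in low-gate and 726 CPM in high-gate cells labelled G2M. Whether the label marks the same phase in each gate was not tested.

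Low-gate cells labelled G2M were smaller than high-gate cells with that label. Their median forward scatter was 48559 and their median transcripts 25477, against 89648 and 55227 in high-gate cells with the same label. Cells labelled G1 in the high gate had a median of 104202 in forward scatter and 69487 transcripts, above the 48559 and 25477 of the low-gate G2M cells. Cells of one label thus differed in size between gates.

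**Figure D2:**
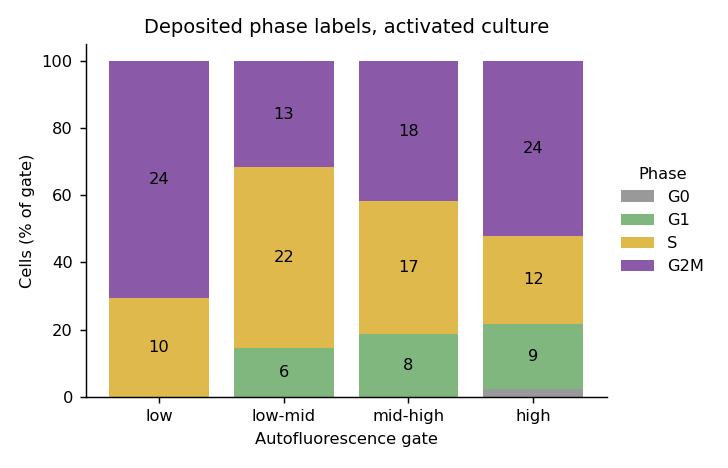
Share of cells (percent of the gate) by deposited phase label in the 4 gates of the activated culture, with the number of cells printed on each segment of more than 1 cell. The low gate has 24 G2M and 10 S cells and no G1 cell, and the high gate 24 G2M, 12 S, 9 G1 and 1 G0 cell.

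Of 6990 measured genes, 324 (4.64%) were called higher in the high gate and 246 (3.52%) lower, 8.15% in all. By any amount, 44.7% were higher and 55.3% lower. With TMM scaling in place of totals the split was 400 higher and 162 lower, since it moved the median of all measured genes from -0.04 to 0.01. These are differences in share: per cell, 6958 of the 6990 genes had more counts in the high gate, with a median ratio of 2.19, and 214 of the 246 genes called lower still had more counts per cell there. Levels stepped up at all 4 gates for 450 measured genes (6.44%) and down for 669 (9.57%). Of the called genes, 135 higher and 127 lower ones stepped in this order.

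The targets of p53 had the largest median of the gene lists. p53 is the transcription factor that responds to DNA damage and other stress, and among its targets are genes that hold the cell cycle, promote cell death or temper p53 itself. Of 19 targets listed, 11 were measured, 10 of them higher in the high gate by any amount and 6 by at least 1.5-fold, beside a background of 44.7% and 4.64%. Their median log2 ratio was 0.84, against -0.04 for all measured genes. Summed over the 11, the level was 504 CPM in the low gate, 592 in low-mid, 672 in mid-high and 1187 in high, so most of the step lay between the last pair of gates.

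Cdkn1a, which encodes the cyclin-dependent kinase inhibitor p21 that p53 switches on to stop the cycle, lies on chromosome 17 from 29090976 to 29100727 (GRCm38, forward strand). It stood at 109.4 CPM in the low gate, 165.2 in low-mid, 194 in mid-high and 454 in high, or 2.76 and 26.0 counts per cell in the end gates. Its log2 ratio was 1.96 (1.68 to 2.25). The brightest gate stood apart from the other gates, and no single cell held most of the counts: the top cell held 14.9% of the low gate's counts and 11.1% of the high gate's.

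Among cells labelled S, Cdkn1a stood at 69.3 CPM in the low and 342 CPM in the high gate, and among cells labelled G2M at 127 and 312 CPM. In the 9 high-gate cells labelled G1 it reached 851 CPM, against 287 CPM in the 8 mid-high ones. The difference was present in both labels that the end gates share, with log2 ratios of 2.15 in S and 1.23 in G2M cells, and the high gate also held cells of the G1 label with more Cdkn1a.

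The spread between cells was wide. The median cell of the low gate had 74.1 CPM of Cdkn1a and that of the high gate 266 CPM, with a range of 0 to 471 CPM in the low and 0 to 2296 CPM in the high gate. After thinning every cell to 20186 counts, which leaves out 7 low-gate cells and 1 high-gate cell, 22 of 27 low-gate and 36 of 45 high-gate cells had a Cdkn1a transcript. Unthinned, the shares were 79.4% and 97.8%. The thinned shares of the end gates lay within each other's exact 95% intervals (61.9 to 93.7% and 65.4 to 90.4%). The median levels per cell differed, while the range of the low gate lay inside that of the high gate. In low-mid the median cell had 54.6 CPM, below that of the low gate, and the highest cell 1556 CPM. A transcript was seen in 17 of 35 thinned low-mid cells and 29 of 40 thinned mid-high cells.

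Ccng1, encoding cyclin G1, a regulator in the p53 loop, stood at 104, 107, 150 and 287 CPM from low to high, a log2 ratio of 1.39 (1.09 to 1.69). Trp53inp1, which encodes a nuclear protein that aids p53, stood at 11.6, 21.04, 20.2 and 47.1 CPM and had a ratio of 1.40 (0.82 to 1.91). Both were lowest in the dimmest gate and highest in the brightest. Phlda3, a repressor of Akt, had a ratio of 1.202 (0.64 to 1.72), Eda2r, a death receptor of the TNF receptor family, 1.28 (0.69 to 1.797), and Zmat3, which encodes an RNA-binding protein, 0.84 (0.36 to 1.31). After thinning, Eda2r was seen in 5 of 27 low-gate and 20 of 45 high-gate cells.

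The other p53 targets stood closer to level. Bax, which encodes a pore-forming death effector, had a log2 ratio of 0.32 (-0.06 to 0.70), and Mdm2, the ligase that removes p53, 0.03 (-0.38 to 0.45). Btg2, an antiproliferative and immediate early gene, went the other way at -0.77 (-1.26 to -0.28), with 0.25 in cells labelled S alone. The list median in other cultures was 0.20 in the quiescent, -0.20 in the 24 h and 0.35 in the 48 h culture. Cdkn1a by itself was higher in the high gate everywhere, at 1.39, 0.52 and 1.31, so its direction was the same in the 4 cultures. Between the middle gates of the activated culture the list median was 0.005.

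Genes of the G1 phase machinery were mixed. Of 12 measured cyclins, kinases and inhibitors of G1, 7 were higher by any amount and 5 of them by the fold, Cdkn1a included. Over all measured genes these shares were 44.7% and 4.64%, and the list median was 0.33. Ccnd1, cyclin D1, stood at 879, 909, 941 and 1381 CPM, and Ccnd2, cyclin D2, at 573, 583, 716 and 1045 CPM from low to high. Both carry mitogen signals into the cycle and both had their largest step at the last gate. Their log2 ratios were 0.65 (0.53 to 0.76) and 0.86 (0.72 to 1.00), and in the other cultures they lay between -0.37 and 0.45. Among S cells Ccnd1 stood at 735 CPM in the low and 1267 CPM in the high gate, and among G2M cells at 941 and 1044 CPM. In the 9 high-gate cells labelled G1, a label absent from the low gate, it stood at 2195 CPM. Rb1, the retinoblastoma gene that restrains S phase entry, had a ratio of 0.88 (0.35 to 1.40), whereas Cdk4, the kinase partner of the D cyclins, had -0.33 (-0.47 to -0.19).

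Genes of G2 and mitosis divided. Of 59 measured, 25 were higher and 34 lower by any amount, beside 44.7% and 55.3% of all measured genes. In the list 7 were called higher and 2 lower, beside 4.64% and 3.52% of all measured genes. Its median was -0.09, so the list as a whole did not lean one way. The 7 called higher were Kpna2, Aurkb, Ccnf, Prc1, Cdca2, Top2a and Ube2c, and the 2 called lower Ccnb2 and Ube2s.

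Promoters of 2 genes called higher and of both genes called lower are printed, since many list members hold cell cycle elements there while their gate differences part. Each is the 150 bases before the RefSeq start (GRCm38.p6), 5′ to 3′ on the gene's strand. Capitals mark TTTGAA, the core of the cell cycle homology region bound by the DREAM complex, and CCAAT, the box bound by NF-Y, each searched on both strands.
Kpna2 (chr11:106999526-106999675, reverse strand): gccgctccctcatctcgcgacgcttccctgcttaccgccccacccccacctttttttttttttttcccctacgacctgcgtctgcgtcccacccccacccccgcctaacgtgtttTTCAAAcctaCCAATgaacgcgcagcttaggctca
Prc1 (chr7:80294301-80294450, forward strand): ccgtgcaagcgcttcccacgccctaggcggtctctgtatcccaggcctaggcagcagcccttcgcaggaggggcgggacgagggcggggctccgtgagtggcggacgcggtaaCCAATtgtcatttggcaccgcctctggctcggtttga
Ccnb2 (chr9:70421555-70421704, reverse strand): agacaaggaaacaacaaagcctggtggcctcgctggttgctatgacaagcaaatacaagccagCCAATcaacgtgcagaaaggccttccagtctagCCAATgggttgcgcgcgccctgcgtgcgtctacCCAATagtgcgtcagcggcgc
Ube2s (chr7:4812341-4812490, reverse strand): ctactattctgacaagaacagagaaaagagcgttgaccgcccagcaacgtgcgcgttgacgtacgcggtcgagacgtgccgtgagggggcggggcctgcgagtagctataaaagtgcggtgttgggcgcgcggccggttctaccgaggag

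In this window Kpna2 had 1 TTTGAA and 1 CCAAT match, Prc1 had 1 CCAAT, and Ccnb2 had 3 CCAAT, while Ube2s had 0 of either, as did Tacc3, whose promoter was searched and is not printed. Over measured genes found in the promoter table, 4.79% of 5340 windows held TTTGAA and 29.7% held CCAAT. Among G2 and mitosis genes, TTTGAA was in 10 of 23 windows of genes higher and 8 of 28 of genes lower in the high gate, and CCAAT in 17 of 23 and 22 of 28. Both elements were thus common in the list on either side of the split. A match describes letters only, and no match says only that they are absent from this window. For Ube2s the window lies inside the gene's span in GENCODE M21, 4794546 to 4812590, so it is downstream of the start annotated there.

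Kpna2, which encodes an importin alpha that carries cargo into the nucleus and peaks in G2, had the largest ratio, level with that of Cdkn1a. It stood at 106 CPM in the low gate, 291 in low-mid, 435 in mid-high and 441 in high, with a log2 ratio of 1.96 (1.68 to 2.26). The low gate was apart here, in contrast to Cdkn1a, where the high gate was. Among cells labelled G2M, Kpna2 stood at 86.7 CPM in the low gate, 515 in low-mid, 859 in mid-high and 710.0 in high. Among cells labelled S it stood at 150 CPM in the low and 206 CPM in the high gate, so the difference lay mostly in the G2M label, with log2 ratios of 2.90 there and 0.43 in S cells.

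Prc1, which encodes a protein that bundles the central spindle for cytokinesis, stood at 120, 225, 323 and 324 CPM from low to high, a ratio of 1.36 (1.09 to 1.65). In cells labelled G2M it stood at 148 CPM in the low gate and 531 CPM in the high gate. Aurkb, the aurora B kinase of the chromosomal passenger complex, stood at 18.6, 47.5, 79.5 and 72.1 CPM, a ratio of 1.52 (0.99 to 2.03). After thinning, Aurkb was seen in 6 of 27 low-gate, 8 of 35 low-mid, 27 of 40 mid-high and 30 of 45 high-gate cells. The dim gates were thus poor and the bright gates rich in cells with Aurkb. Other mitosis genes did not share this step. After thinning, Prc1 was seen in 22 of 27 low-gate and 37 of 45 high-gate cells and Top2a in 25 of 27 and 39 of 45. Kpna2 was seen in 20 of 27 and 43 of 45.

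Ccnf, which encodes cyclin F of a ubiquitin ligase, had a ratio of 1.38 (0.88 to 1.87), Cdca2, a chromatin phosphatase subunit, 1.03 (0.53 to 1.52), and Top2a, the topoisomerase that untangles chromosomes, 0.99 (0.78 to 1.204). Ube2c, an ubiquitin-conjugating enzyme of the anaphase-promoting complex, had 0.64 (0.44 to 0.83).

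Ccnb2, cyclin B2, went the opposite way, at 133 CPM in the low gate, 111 in low-mid, 56.01 in mid-high and 67.6 in high, a ratio of -0.88 (-1.19 to -0.56). It was lower in the high gate in both shared labels, at 152 against 108 CPM in G2M cells and 88.5 against 32.1 CPM in S cells. Ube2s, which extends ubiquitin chains for the anaphase-promoting complex, had -0.65 (-0.87 to -0.43), and Tacc3 and Racgap1, of the spindle and of cytokinesis, both had -0.57. Mki67, the proliferation marker, was level at -0.03 (-0.22 to 0.16), and Ccnb1, cyclin B1, at 0.05 (-0.16 to 0.27). Over the list, 10 of 59 members had intervals above 0 and 16 below it, and the other intervals reached 0. Of all 6990 measured genes, 628 had intervals above 0 and 953 below it.

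Within the labels the list leaned upward: its median was 0.58 in S cells alone and 0.20 in G2M cells alone, and the sign changed in 8 of the 16 alternative settings. In other cultures its median was 0.17, 0.49 and 0.06 in the quiescent, 24 h and 48 h culture. Kpna2 was higher in the high gate in all of them, at 0.80, 2.04 and 1.39, and so was Prc1, at 0.35, 1.51 and 1.27. Ccnb2 was lower in the quiescent and 48 h cultures, at -0.39 and -1.24, and at 24 h it had no count in the low gate and 10.2 CPM in the high gate.

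Genes of DNA replication entry tended lower in the high gate. Of 45 measured genes of the G1 to S transition, 34 were lower by any amount and 4 by the fold. Over all measured genes these shares were 55.3% and 3.52%, and the list median was -0.20. Cdt1, which loads the replicative helicase, was among the 10 lowest ratios, at 70.98, 84.9, 47.0 and 27.7 CPM and a ratio of -1.10 (-1.51 to -0.68). Mcm7 and Mcm2, subunits of that helicase, had -0.61 (-0.85 to -0.37) and -0.57 (-0.86 to -0.27). The 3 named genes were lower in the high gate within both labels. Cdt1 stood at 150 CPM in the low and 78.8 CPM in the high gate among S cells and at 36.7 and 14.7 CPM among G2M cells. Mcm7 stood at 339 and 249.1 CPM and at 193 and 153 CPM, and Mcm2 at 200.2 and 178 CPM and at 123 and 94.4 CPM. The list median, in contrast, was 0.07 in S cells and 0.10 in G2M cells.

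**Figure D3:**
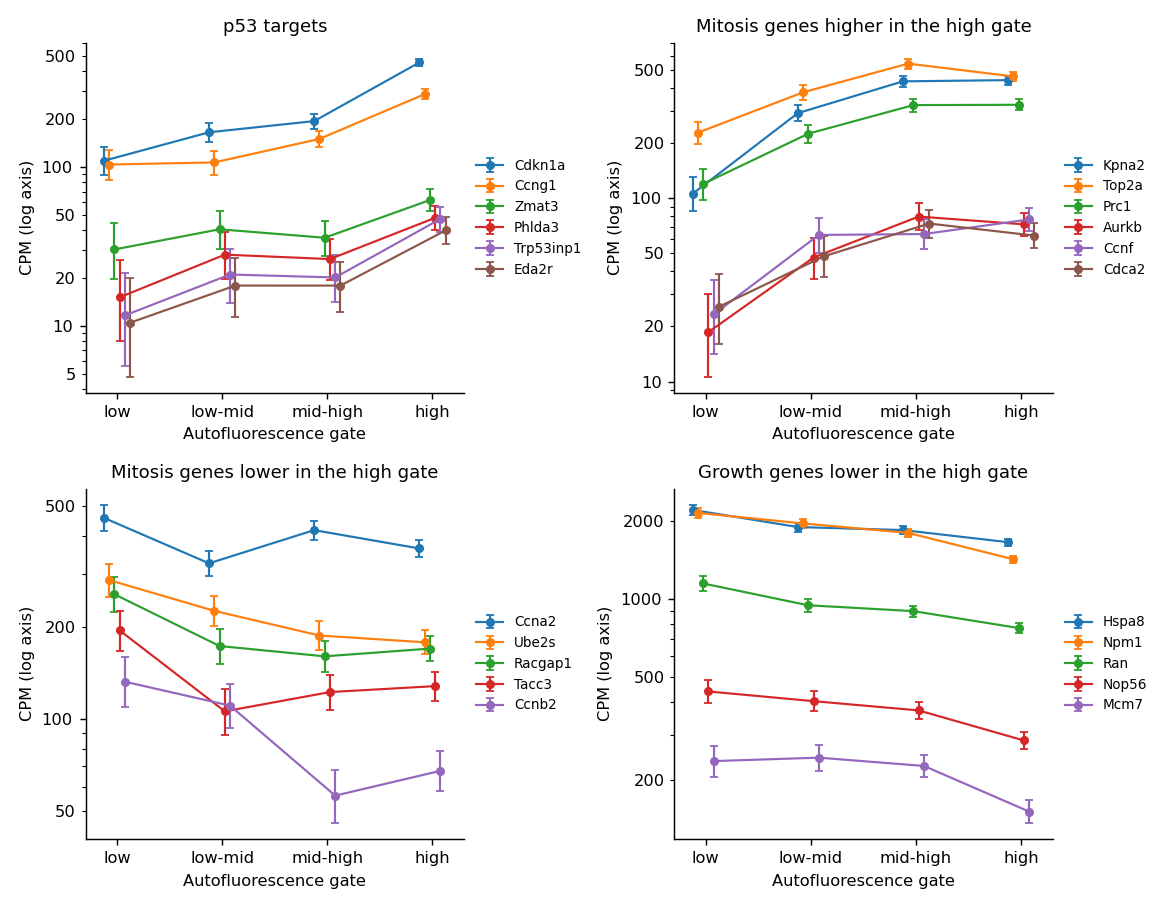
CPM (log axis) of named genes in the 4 gates of the activated culture, with exact 95% Poisson intervals that cover counting error. Cdkn1a steps from 194 to 454 CPM at the last gate, Kpna2 from 106 to 291 CPM at the first, Ccnb2 lies at 133 CPM in the low and 67.6 CPM in the high gate, and Npm1 at 2140 and 1419 CPM.

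The translation machinery took a smaller share of the RNA in bright cells. All 67 measured ribosomal protein genes were lower in the high gate, beside 55.3% of all measured genes, and 60 had intervals below 0, although 1 passed the fold. Their median was -0.26, they summed to 67328 CPM in the low and 56516 CPM in the high gate, and 35 stepped down at every gate. The percent of a cell's counts in ribosomal protein genes, in the deposited table, had medians of 7.29, 7.08, 6.50 and 5.81 from low to high. Reads of these genes can come from near-identical copies, so single members are uncertain.

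Of 37 measured genes that build ribosomes, 34 were lower and 10 called lower, beside 55.3% and 3.52% of all measured genes. Their median was -0.34. Npm1, the nucleolar chaperone nucleophosmin, stood at 2140, 1948, 1792 and 1419 CPM, a ratio of -0.59 (-0.67 to -0.51). Nop56, a core protein of methylating small nucleolar particles, had -0.61 (-0.78 to -0.43), and Ncl, nucleolin, -0.43 (-0.56 to -0.29). Each stepped down at every gate. Among 26 chaperones 25 were lower, with a median of -0.30, and Hspa8, the constitutive heat shock protein of the cytosol, had -0.41 (-0.49 to -0.33). Cryab, the small heat shock protein alpha-B crystallin, was the exception at 0.98 (0.64 to 1.33). Per cell, every measured member of both lists of the ribosome had more counts in the high gate, with median ratios of 1.89 for ribosomal proteins and 1.74 for ribosome biogenesis, under the 2.19 of all measured genes.

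The exit cultures leaned the same way. Over the same measured genes, 25.7% were higher and 74.2% lower by any amount in the quiescent culture, 41.9% and 57.9% at 24 h, and 30.1% and 69.9% at 48 h. Ribosomal protein medians were -0.15, -0.62 and -0.64 in the quiescent, 24 h and 48 h culture, and those of ribosome biogenesis -0.24, -0.48 and -0.74. All measured genes had medians of -0.20, -0.08 and -0.20 there, so in the quiescent culture ribosomal proteins stood above and ribosome biogenesis close to the median of all genes. The medians were nearer 0 in the activated than in the exit cultures, a difference that was not tested as a list, and no ribosomal protein gene reached an unadjusted p under 0.05 in the interaction test described below.

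Of 27 measured genes raised in the activated state, 16 were lower, a share near the 55.3% of all measured genes. Their median was -0.29, with 4 called lower and 2 higher, beside 3.52% and 4.64% of all measured genes. Sox11, a transcription factor of neurogenic progenitors, had -0.92 (-1.13 to -0.72), and Dll1, a Notch ligand, -1.03 (-1.50 to -0.54). Ran, the nuclear transport GTPase, had -0.56 (-0.67 to -0.45) and Tuba1b, an alpha tubulin, -0.56 (-0.65 to -0.48). The members called higher were Ccnd1 and Ccnd2. Of 27 measured genes of the quiescent state 16 were higher, beside 44.7% of all measured genes, with a median of 0.17, 4 called higher and 1 lower. Sparc, a secreted matrix protein, stood at 1149, 1646, 1993 and 2431 CPM, a ratio of 1.08 (0.98 to 1.17), and Ednrb, the endothelin receptor of glia, had 1.03 (0.61 to 1.46). Cpe and Cst3, a prohormone peptidase and a secreted protease inhibitor, had 0.80 (0.60 to 1.00) and 0.77 (0.53 to 1.02). Id3, a target of BMP signalling on the same list, was lower, at -0.62 (-0.78 to -0.46).

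Lysosomal genes, which serve the organelle where autofluorescent material gathers in grains, leaned slightly up. Of 53 measured, 38 were higher by any amount and 3 by the fold, beside 44.7% and 4.64% of all measured genes. The other 15 were lower, down to a log2 ratio of -0.59, and 1 of them was called. The list median was 0.12, and the members named next are all from the higher side. Ctsd, the aspartic protease cathepsin D, stood at 40.7, 68.6, 66.1 and 98.7 CPM and had a ratio of 1.10 (0.67 to 1.54). Laptm4a, a lysosomal membrane gene, had 0.71 (0.45 to 0.97), and Tpp1, a lysosomal peptidase, 0.65 (0.26 to 1.04). The next members were smaller: Cd63 had 0.50 (0.26 to 0.75), Atp6v1a, a proton pump subunit, 0.46 (0.23 to 0.71), and Lamp1, the abundant membrane glycoprotein, 0.36 (0.18 to 0.54). Ctsb, cathepsin B, had 0.23 (-0.06 to 0.54). The median was -0.15, -0.03 and 0.03 in the quiescent, 24 h and 48 h cultures, beside medians over all measured genes of -0.20, -0.08 and -0.20. Autophagy genes had a median of 0.06 over 25 measured.

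Several lists of metabolism leaned up by small amounts. Of 26 fatty acid oxidation genes 21 were higher, with a median of 0.25 and 2 past the fold, among them Echs1, the short-chain enoyl-CoA hydratase, at 0.65 (0.19 to 1.12). Of 17 glycolysis genes 15 were higher, with a median of 0.19, and Ldhb, a lactate dehydrogenase subunit, had 0.72 (0.34 to 1.11). Both lists thus stood above the 44.7% background of genes higher by any amount, and the background past the fold was 4.64%. Of 15 transcripts of the mitochondrial genome 13 were higher, with a median of 0.15, and the 77 nuclear genes of oxidative phosphorylation had 0.06. Genes of cholesterol and fatty acid synthesis had a median of 0.02 over 32 measured, against -0.23, -0.65 and -0.88 in the other cultures. Fth1, the ferritin heavy chain, had 0.48 (0.38 to 0.58), while Ftl1, the light chain, was level at 0.07 (-0.03 to 0.18). Matrix and adhesion genes were higher for 23 of 29, with a median of 0.24.

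**Figure D4:**
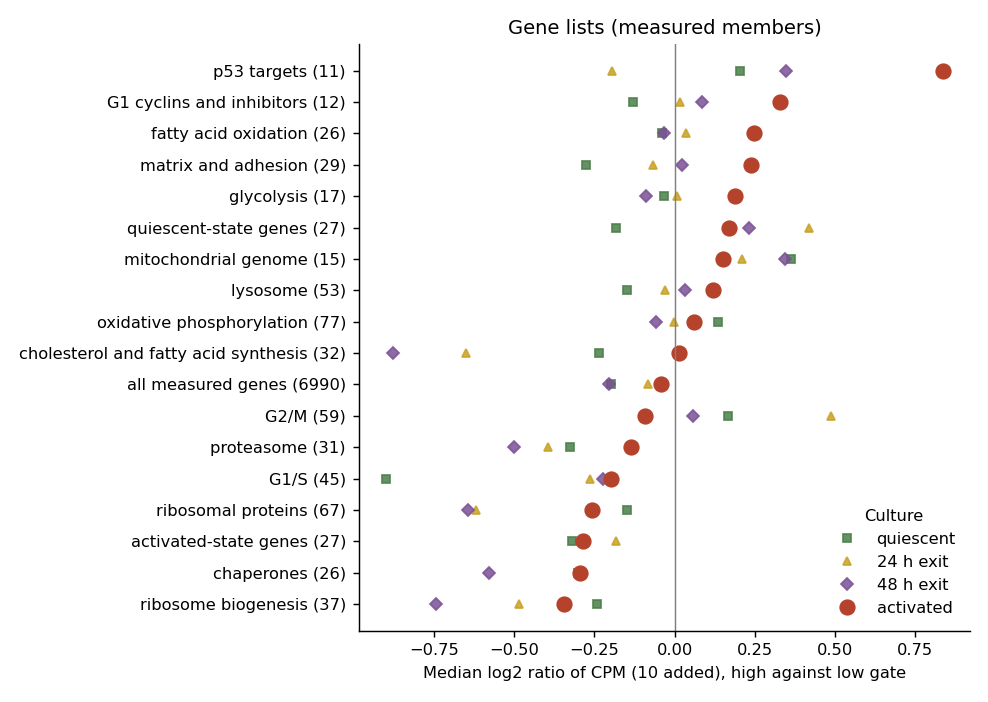
Median log2 ratio of CPM with 10 added, high against low gate, over the measured members of the gene lists described and of all measured genes (number in brackets), for the activated culture (large points) and the 3 other cultures. p53 targets lie at 0.84 in the activated culture against 0.20, -0.20 and 0.35, and cholesterol and fatty acid synthesis at 0.02 against -0.23, -0.65 and -0.88.

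Beyond the lists, the largest ratios belonged to genes of mixed function. Dcxr, a dicarbonyl and xylulose reductase, stood at 4.65, 21.04, 19.04 and 45.9 CPM, a ratio of 1.93 (1.31 to 2.34) with 4 counts in the low gate. Rarb, a retinoic acid receptor, had 1 count in the low and 61 in the high gate, a ratio of 1.57 (0.95 to 1.74). Anxa1, a phospholipid-binding annexin, had 1.53 (0.90 to 1.98), and its top cell held 20.2% of the high gate's counts. Cd93, a surface glycoprotein, had 1.42 (0.94 to 1.89) and Ak1, adenylate kinase, 1.40 (0.96 to 1.85). These were thus mostly low in the low gate, and in none but Rarb did the level step up at every gate.

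On the lower side Plp2, a membrane proteolipid, stood at 33.7, 21.04, 27.4 and 6.83 CPM, a ratio of -1.38 (-1.84 to -0.85). Snhg4 and Dancr, hosts of small nucleolar RNAs or long noncoding RNAs, had -1.23 (-1.64 to -0.81) and -1.10 (-1.57 to -0.60). Prr18 had -1.25 (-1.72 to -0.75), Zcchc12 -1.13 (-1.52 to -0.73), Zic2, a zinc finger factor of neural progenitors, -1.10 (-1.58 to -0.57), Lpgat1, a lysophospholipid acyltransferase, -1.09 (-1.59 to -0.55), and Kctd15 -1.07 (-1.54 to -0.56). The unnamed-function transcript 2810468N07Rik had -1.20 (-1.66 to -0.70). The gate with the highest level was the low gate for each of these, and Snhg4, Lpgat1 and 2810468N07Rik stepped down throughout.

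What differs between this culture and the others was tested with edgeR's quasi-likelihood test of an interaction on 8 sums, the high and low gates of the 4 cultures, with Benjamini-Hochberg adjustment. Of 9341 genes tested, 0 were called at an adjusted p of 0.05, 0% of the genes tested, and 362 (3.88%) had an unadjusted p under 0.05. DESeq2 called 0 as well, with 44 under the unadjusted threshold. Leaving out a culture in turn, the test called 5 genes without the quiescent, 10 without the 24 h and 8 without the 48 h exit culture. The test sets 1 culture against the spread of 3 cultures of different states, and no gate response of this culture passed the main fit.

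Mt2, a metallothionein that binds zinc and copper, came nearest in the main fit, and among the alternatives only DESeq2 did not call it. In the activated culture it stood at 185 CPM in the low gate, 170 in low-mid, 136 in mid-high and 109.7 in high, stepping down throughout, a ratio of -0.70 (-0.97 to -0.43). In the quiescent culture it stood at 97.5 CPM in the low and 157 CPM in the high gate, at 24 h at 203 and 610 CPM, and at 48 h at 64.1 and 137 CPM. All other cultures thus had more in the high gate. The fitted changes were -0.70 and 1.33, a difference of -2.03 with an adjusted p of 0.073 by edgeR, and over the alternatives the adjusted p ran from 2.5e-05 to 0.357. Mt1, the neighbouring copy with similar sequence, had -0.34 (-0.49 to -0.19) here and 0.31, 1.46 and 0.43 elsewhere.

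Mest, an imprinted gene, was slightly lower in the high gate here and lower by more in bright cells elsewhere. It stood at 2047, 2355, 2138 and 1863 CPM over the gates, a ratio of -0.14 (-0.21 to -0.06), against -1.29, -1.495 and -1.78 in the quiescent, 24 h and 48 h cultures, with an adjusted p of 0.399 by edgeR for the difference. Rarb was higher here and lower elsewhere, at -1.10, -0.35 and -0.83, with an adjusted p of 0.222 by edgeR. Car6, a secreted carbonic anhydrase, was at 8.15, 11.7, 3.92 and 31.1 CPM here, where 1 cell held 39.1% of the high gate's counts, and had ratios of -0.49, -1.07 and -1.18 elsewhere. Its adjusted p by edgeR was also 0.222. Mest had one sign in the 4 cultures, Rarb and Car6 turned sign in the activated one, and none of them passed the threshold in the fit described. Each of these genes was called in some of the alternatives, all of which rest on 1 activated culture.

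Members of the p53 list showed the same limit. Trp53inp1 had a fitted change of 2.06 here and 0.11 in the other cultures and an unadjusted p of 0.0029 for the difference, but an adjusted p of 1 by edgeR. Cdkn1a had 2.11 and 1.33, an unadjusted p of 0.054 and an adjusted p of 1 by edgeR. Of 13 p53 targets tested, 3 had an unadjusted p under 0.05 with a larger change here and 1 with a smaller one, beside 3.88% of all genes tested. Of 59 G2 and mitosis genes 0 and 6 did, and of 32 cholesterol and fatty acid synthesis genes 6 and 0, so none of these lists holds a difference that passes the adjustment.

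**Figure D5:**
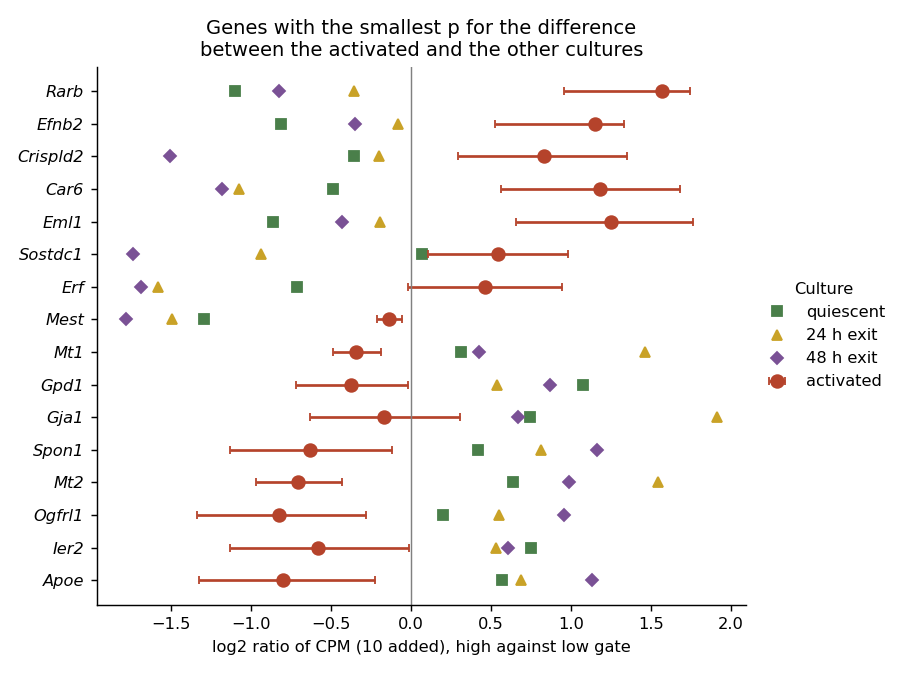
Log2 ratio of CPM with 10 added, high against low gate, in the activated culture (large points, 95% intervals for counting error) and the 3 other cultures, for the 8 genes in each direction with the smallest p for the difference between the activated and the other cultures. Mt2 lies at -0.70 in the activated culture and above 0 in the others, Rarb at 1.57 and below 0, and Mest at -0.14 against -1.29, -1.495 and -1.78.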

How the data were processed

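SORT-seq with CEL-Seq2 chemistry filled 2 plates of 384 wells, per the labels. The submitters' processing notes name Seurat 4.1.1, BWA 0.7.15 and R 4.2.0, and the builds hg19 and mm10 without a role. The authors deposited expected counts, which are numbers of molecules after a correction for the limit of 4096 identifiers, in a table per plate and a merged table of 15364 genes. Their deposited per-cell table gives, per the file headers, a count of detected genes, a percent of counts for mitochondrial and for ribosomal protein genes, an S, a G2M and a G0 score, and scatter and fluorescence as intensity, with condition, gate, phase and cluster. How phases and clusters were set is not given in the sources used here, and doublets were not searched for. Wells outside that table were left out.

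Counts were summed over the cells of each gate, rounded and scaled to the sum's total. Ratios carry exact conditional binomial 95% intervals and levels exact Poisson ones. The interaction of activated culture and high gate was fitted in R 4.3.3 by edgeR 4.0.16, with culture as a block, TMM scaling, genes kept by filterByExpr and Benjamini-Hochberg adjustment at 0.05. The fit had 2 residual degrees of freedom and a common biological coefficient of variation of 0.130. limma 3.58.1 with voom and DESeq2 1.42.0 were alternatives. Intervals and figures were made in Python 3.11.15 with scipy 1.17.1, pandas 2.3.3, matplotlib 3.10.9 and numpy 2.4.6. Scripts were tested on simulated data. Alternatives to the pseudocount, fold, scaling, filter, cells and gates were tried.

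Cells and gene lists were chosen with earlier results of these data known. Named genes were the 10 largest called ratios in each direction, without predicted genes or those of mitochondria and ribosomal proteins, 2 members of each list with the largest absolute ratio, a fixed set of cell cycle, lysosome and stem cell genes, and the 8 smallest p for the difference between cultures in each direction. Further list members were named after their values were seen. Thinning drew 1 sample of 20186 counts per cell. Gene coordinates are those of GENCODE M21 on GRCm38, matched by symbol, and promoters those of RefSeq on GRCm38.p6.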

Additional observations from a re-analysis of the deposited data

Results flagged for a closer look

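Each result here had one sign in the activated culture and the opposite sign in all of the quiescent, 24 h and 48 h cultures. The genes were measured and past 1.5-fold between the high and low gates of the activated culture. Their differences between cultures were tested in the main interaction fit of edgeR and none passed there at an adjusted p of 0.05, though some alternatives called some of them.

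Higher in the high gate of the activated culture were Rarb, with a log2 ratio of 1.57, Eml1, a microtubule-binding protein gene, with 1.251, Car6 with 1.18, Crispld2, a secreted protein gene, with 0.83, and Ppard, a lipid-sensing nuclear receptor, with 0.68. Lower there were Ogfrl1 with -0.83, Btg2 with -0.77, Mt2 with -0.70 and Spon1, a secreted matrix protein gene, with -0.63. Spon1 turned sign in 3 settings, to 0.12 with the upper against the lower pair of gates, 0.89 between the middle gates and 0.28 with low-mid in place of low. Btg2 turned sign in 3 as well, to 0.25 in S cells alone, 0.0047 between the middle gates and 0.42 with low-mid in place of low. Between the middle gates Car6 had -0.64 and Ogfrl1 0.19, and with equal forward scatter classes Ppard had -0.13.

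Among the lists, response genes of EGF, FGF and MAPK signalling had a median of 0.11 over 16 measured members, against -0.16, -0.06 and -0.03 in the quiescent, 24 h and 48 h cultures. All measured genes had medians of -0.04 in the activated and -0.20, -0.08 and -0.20 in the other cultures, so the list stood above them in each culture. Within the activated culture the list median was 0.36 in S cells alone and -0.04 in G2M cells alone, and its sign held in 14 of 16 settings. The difference between cultures was not tested. Hbegf, a ligand of the EGF receptor, was the only member called higher, at 1.02 (0.68 to 1.36).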

How the results depend on the processing

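The high and low gates of each culture were paired in the interaction fit, which held culture as a block, and the labels give no replicate numbers to pair by. The counts of 324 genes higher and 246 lower became 557 and 476 with 1 CPM added, 51 and 20 with 50 CPM, 1033 and 1248 at the lower fold tried, 52 and 15 at 2-fold, 979 and 808 in S cells alone, 1251 and 1153 with equal shares of forward scatter classes, which rests on 6 low-gate and 5 high-gate cells, 70 and 17 with the upper pair of gates against the lower pair, 73 and 52 between the middle gates, and 115 and 133 with low-mid in place of low, the last chosen after seeing the data. With TMM 162 were lower, thinned 445 were lower, and with no filter 497 were higher. The interaction test called 1 gene with voom, 4 with library totals, 8 with no filter, 4 with an ordered gate score, and 5 to 10 when a culture was left out. Signs turned between the middle gates for Ak1 -0.039, Anxa1 -0.30, Anxa2 -0.13, Bnip3 -0.0068, Bnip3l -0.10, Btg2 0.0047, Car6 -0.64, Cd93 -0.16, Cryab -0.12, Cst3 -0.15, Ctsd -0.047, Dcxr -0.096, Echs1 -0.19, Eda2r -0.000150, Gpx8 -0.051, Hbegf -0.12, Kctd15 0.17, Ldhb -0.30, Ogfrl1 0.19, Phlda3 -0.067, Plp2 0.27, Prr18 0.50, Sox11 0.10, Spon1 0.89, Trp53inp1 -0.041, Wdr75 0.066, Zcchc12 1.11, Zic2 0.13 and Zmat3 -0.14, with equal forward scatter classes for Anxa2 -0.058, Cryab -0.28, Plp2 1.39, Ppard -0.13, Slc2a3 -0.24 and Snhg4 0.20, with low-mid in place of low for Anxa2 -0.024, Btg2 0.42, Echs1 -0.16, Slc2a3 -0.21, Spon1 0.28 and Zcchc12 0.065, in S cells alone for Btg2 0.25 and Myc 0.53, and with the upper pair of gates for Spon1 0.12. The cause was not tested. Over all settings, 1675 values of named genes moved by less than their counting error, 441 moved further and the 44 above changed sign, and of list medians 496 moved by less than it and 16 further. Medians near 0 changed sign too. The main sign held in 8 of 16 settings for G2/M, 12 for cholesterol and fatty acid synthesis and 13 for G1/S. It held in 14 for the quiescent state and 15 for the lysosome, and in all 16 for p53 targets, ribosomal proteins and ribosome biogenesis. Ratios of genes with few low-gate counts, such as Rarb and Dcxr, are limited by depth.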
